A study of Mus musculus with 207 samples.

Results

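The contrast examined here asks whether the liver's transcriptional response to a step in dietary fat, from FAT-20 to FAT-40, depended on the protein in the diet. It is the change on WPI minus the change on CAS, and it was fitted to all genes of the liver count table. It uses 47 of the 207 RNA-seq libraries of the series and 47 of its 70 liver libraries: 11 for CAS FAT-20, 12 for CAS FAT-40, 12 for WPI FAT-20 and 12 for WPI FAT-40. Of 55536 genes in the table, 15051 had enough reads to be tested. All mice were C57BL/6, and every diet carried the protein level labelled 30, so the groups differ in protein source and in fat level only as far as the labels say. The labels abbreviate the proteins and give no unit for either level; CAS is taken to be casein and WPI whey protein isolate, which is known from the study and not from the labels. Age, sex, time on the diet and feeding state are not given in the labels. Each library is labelled with its own mouse identifier, and the identifiers fall into 4 stems per group (the identifier without its last digit); what a stem stands for, such as a shared cage, is not stated. Nothing in the labels sets the mice of a group apart further, so p-values measure the spread between these libraries.

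The liver takes up dietary and circulating fatty acids, oxidises or esterifies them, and exports lipid in lipoproteins. Fatty acid oxidation genes are driven largely by the nuclear receptor PPARα, lipogenic genes by SREBP1c, and drug-metabolising genes by CAR, PXR and NRF2. In mice the male pattern of secreted liver proteins, among them the major urinary proteins, follows the pulses of growth hormone.

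Depth on genes ranged from 21 to 41 M reads per library. In this set the hepatocyte markers were abundant, with albumin (Alb) between 47100 and 102000 counts per M (CPM). The Y-linked Ddx3y ran from 68.2 to 115 CPM and Xist reached at most 0.382 CPM, so all 47 libraries carried male transcripts. WPI FAT-40 replicates 1 to 3, which share an identifier stem, stood apart. Unmapped reads made up 9.71% to 10.8% of their entries, against 3.14% to 7.5% in the other 44 libraries, and several secreted-protein genes were higher in them than in any of the others: Mup11, for example, was at 697 to 772 CPM in them and at most 189 CPM in the other 44. Replicate 2 of that group also held pancreatic RNA: Ctrb1, a chymotrypsinogen, was at 373 CPM and Pnlip, pancreatic lipase, at 197 CPM, where no other library passed 1.53 and 0.524 CPM. The summed level of the 16 pancreatic acinar markers was 1670 CPM in the highest WPI FAT-40 library and ran from 12.1 to 33.4 CPM in that group without replicates 1 to 3; Prss1 was at 0 throughout. A clock score, the mean log2 CPM of Dbp, Per3, Tef and Ciart minus that of Arntl, Npas2 and Clock, was -0.52 to 2.74 in these 3 libraries and 4.12 to 5.85 in the other 9 of their group. In CAS FAT-40 it was 0.60 to 1.43 in replicates 7 to 9 and 3.93 to 6.13 in the other 9. It ran from -0.77 to 5.22 on CAS FAT-20 and from 1.33 to 6.01 on WPI FAT-20. Its part in the results was not tested beyond its use as a covariate, which gave 222 calls against 224 in the interaction. The split by direction moved, with 119 more positive and 103 more negative on WPI, against 132 and 92 in the main test. Values without WPI FAT-40 replicates 1 to 3 stand beside nearly all called genes described below.

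The fat response differed between the proteins for 224 genes (1.49% of genes tested, edgeR quasi-likelihood test, Benjamini-Hochberg adjusted p under 0.05; 2467 genes at an unadjusted p under 0.05). In 132 (0.877%) the change was more positive on WPI and in 92 (0.611%) more negative. Without WPI FAT-40 replicates 1 to 3 the same test called 7 genes (0.0465%), 3 more positive and 4 more negative, with 1621 genes at an unadjusted p under 0.05. All 7 are among the 224. Of the 224, 223 kept their direction and 219 an unadjusted p under 0.05 there, and the median gene kept 84.8% of its log2 interaction. The 224 were picked from these same data and most libraries are shared, so these values describe the genes and give no test. The loss was larger among the genes more positive on WPI, where 27 of 132 shrank by over 1.5 times, than among those more negative, where 0 of 92 did; this contrast was not tested. The 224 calls also depend on counting each mouse of a stem as independent. Counts summed by stem gave 0 calls in the interaction and a random stem effect gave 2, as described below.

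**Figure D1:**
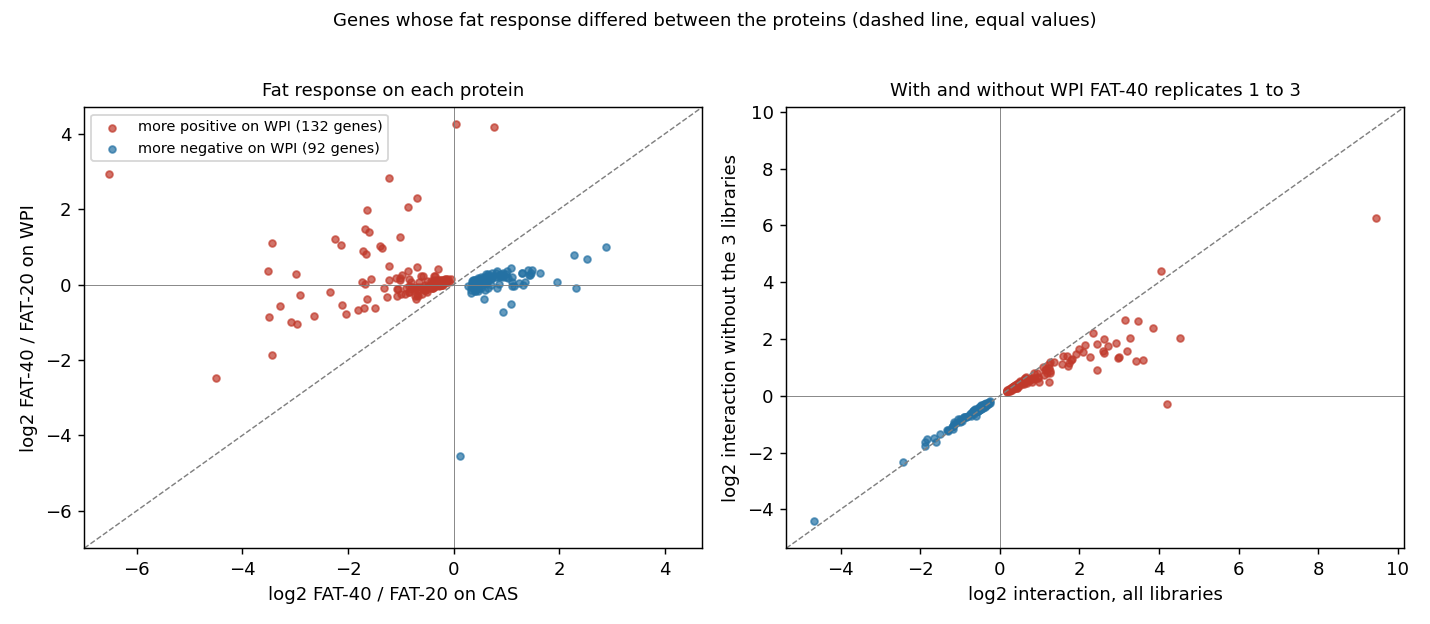
Left, log2 change from FAT-20 to FAT-40 on CAS (x axis) and on WPI (y axis) for the 224 genes called in the interaction, where most points lie along the horizontal axis. Right, log2 interaction of the same genes with all libraries (x axis) and without WPI FAT-40 replicates 1 to 3 (y axis); the dashed line marks equal values, and several genes more positive on WPI lie below it.

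Most of the 224 genes moved with fat on CAS and did not pass the test on WPI. From FAT-20 to FAT-40, 4540 genes were called on CAS (30.2%), 2372 higher (15.8%) and 2168 lower (14.4%), and 984 on WPI (6.54%), 631 higher (4.19%) and 353 lower (2.35%). These 2 responses make up the interaction, so the following counts and medians only describe the 224 genes, and a change not called may still be present. Among the 132 genes more positive on WPI, 106 were called lower on CAS only and 14 lower on both proteins. Another 3 were called lower on CAS and higher on WPI, 8 higher on WPI only, and 1 passed neither test. Among the 92 genes more negative on WPI, 77 were called higher on CAS only, 14 higher on both and 1 lower on WPI only. The median log2 change of the 132 was -0.65 on CAS and 0.00 on WPI (-0.14 on WPI without replicates 1 to 3), and that of the 92 was 0.66 on CAS and 0.11 on WPI (0.16). Over all genes tested the median was 0.00 on CAS and 0.01 on WPI.

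The response on WPI pointed mostly the same way as on CAS. The 4540 genes called on CAS had a median log2 change of 0.35 there, signed by their direction, and of 0.13 on WPI (0.16 without replicates 1 to 3), and 86.5% of them changed in the same direction in the WPI libraries, which share no sample with the CAS ones. The 984 genes called on WPI had a median of 0.30 there and of 0.30 on CAS, with 95.2% in the same direction. Both medians of a called set are raised in the comparison that called it, so they describe the genes and give no test.

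The 7 genes called both with and without the 3 libraries were Aldh1b1, Sulf2, Exoc4, Pole, Pigu, Moxd1 and Gm2814, a long non-coding RNA; the first 4 rose on CAS and the other 3 fell. Pigu, Exoc4 and Gm2814 were chosen after their values were seen. Aldh1b1 (chromosome 4, 45799022 to 45804604 on GRCm38), a mitochondrial aldehyde dehydrogenase, ran from 17.5 to 44.5 CPM (median 30.7) on CAS FAT-20 and from 52.1 to 110 CPM (median 76.9) on CAS FAT-40. On WPI it ran from 27.9 to 75.7 CPM (median 54.4) at FAT-20 and from 35.4 to 114 CPM (median 59.0) at FAT-40. The CAS groups did not overlap and the WPI groups did, with the 4 CAS FAT-20 stem means (19.8 to 36.2 CPM) below every other stem mean of the 4 groups. Its log2 interaction was -1.17 ± 0.19 (SE, adjusted p = 0.00037) and -1.08 without the 3 libraries (adjusted p = 0.0054). Here the proteins differed at the low fat level: WPI exceeded CAS by 0.85 on the log2 scale at FAT-20 (adjusted p = 0.00054), and the log2 difference at FAT-40 was -0.31 (adjusted p = 0.13).

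Sulf2 (chromosome 2, 166073089 to 166155663), a sulfatase that trims heparan sulfate at the cell surface, ran from 10.9 to 22.8 CPM (median 17.5) on CAS FAT-20 and from 29.1 to 49.8 CPM (median 35.5) on CAS FAT-40. On WPI it ran from 15.2 to 35.4 CPM (median 22.5) and from 9.43 to 40.7 CPM (median 20). Every CAS FAT-40 library lay above every CAS FAT-20 library, and 10 of 12 WPI FAT-40 libraries lay below every CAS FAT-40 library. The interaction was -1.14 ± 0.20 (adjusted p = 0.0010) and -0.98 without the 3 libraries (adjusted p = 0.012). Exoc4 (chromosome 6, 33249085 to 33973979), a subunit of the exocyst that tethers vesicles to the plasma membrane, went from a median of 16.8 CPM (15 to 21.6) to 35.3 CPM (29.0 to 41.9) on CAS and from 20.9 CPM (15 to 25.2) to 24.6 CPM (16.1 to 33.3) on WPI. Again only the CAS groups were separate, with an interaction of -0.74 ± 0.14 (adjusted p = 0.0035; -0.64 and 0.043 without the 3 libraries).

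Pigu (chromosome 2, 155278243 to 155357430), a subunit of the transamidase that attaches GPI anchors, fell on CAS from a median of 17.3 CPM (14.8 to 19.4) to 13.2 CPM (12.1 to 14.5), with no overlap. On WPI its medians were 14.9 CPM (13.6 to 16.5) and 15 CPM (12.2 to 18.8). The interaction was small and tight, 0.38 ± 0.07 (adjusted p = 0.0028; 0.32 and 0.043 without the 3 libraries). Gm2814 had a log2 interaction of 1.58 (adjusted p = 0.0023; 1.41 and 0.0323 without the 3 libraries), with a log2 change of -2.12 on CAS and -0.53 on WPI.

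Moxd1 (chromosome 10, 24223517 to 24302790), a monooxygenase related to dopamine beta-hydroxylase, had the largest interaction of the 224. It ran from 1.18 to 33.7 CPM (median 13.4) on CAS FAT-20 and from 0 to 0.708 CPM (median 0.0386) on CAS FAT-40, without overlap. On WPI it ran from 0 to 36.3 CPM (median 5.61) at FAT-20 and from 0 to 301 CPM (median 1.66) at FAT-40, where replicates 1 to 3 were at 206 to 301 CPM and the other 9 libraries at 0 to 51.8 CPM (median 0.0897). Its log2 interaction was 9.45 ± 1.44 (adjusted p = 0.00013) and 6.25 without those 3 libraries (adjusted p = 0.032). The 3 libraries decide its WPI change, fitted at 2.93 (adjusted p = 0.014) with them and at -0.27 (adjusted p = 0.88) without. Among the other 9, replicates 7 to 9 had a mean of 22.3 CPM, replicates 4 to 6 of 1.08 CPM and replicates 10 to 12 of 0.057 CPM. The value of -0.27 therefore rests largely on a second stem, while the median of the 9 lay below that of WPI FAT-20. With a random effect for stem (limma) the adjusted p of the interaction was 0.42. Stem means of this gene spread widely in each group, from 4.91 to 25.7 CPM on CAS FAT-20, from 0.0257 to 0.278 CPM on CAS FAT-40, from 0.459 to 19.6 CPM on WPI FAT-20 and from 0.0570 to 260.0 CPM on WPI FAT-40.

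**Figure D2:**
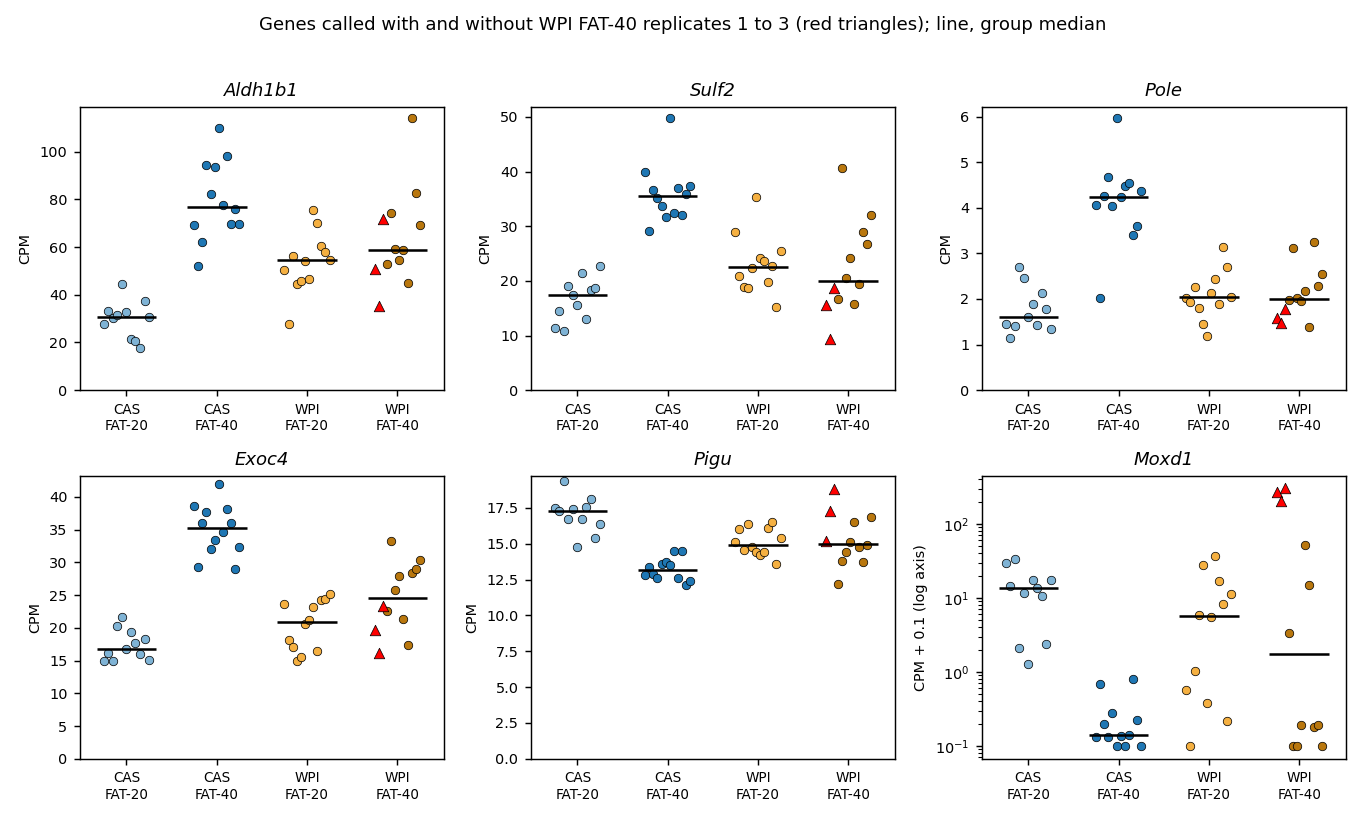
CPM of 6 genes in each library by group (linear axes; log axis of CPM + 0.1 for Moxd1); points are libraries, red triangles are WPI FAT-40 replicates 1 to 3 and lines are group medians. For Aldh1b1, Sulf2, Exoc4, Pigu and Moxd1 the CAS groups did not overlap, while the WPI groups overlapped in all 6 genes.

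Of the 24 cell cycle genes, all measured, 15 rose and 1 fell with fat on CAS, and 1 rose and 0 fell on WPI. Over all genes tested, 15.8% rose and 14.4% fell on CAS, and 4.19% rose and 2.35% fell on WPI. The WPI count was thus near the share over all genes. In the interaction 1.49% of all genes were called, and all these shares apply beside the list counts below. Pole, E2f1 and Chaf1a, which also act in DNA replication, are not on the cell cycle list. Pole (chromosome 5, 110286306 to 110337474), the catalytic subunit of the leading-strand polymerase, is the one of these genes also called without the 3 libraries. On CAS it went from a median of 1.61 CPM (1.15 to 2.70) to 4.24 CPM (2.03 to 5.97), and on WPI from 2.04 CPM (1.18 to 3.13) to 1.99 CPM (1.39 to 3.25). All but 1 CAS FAT-40 library exceeded every CAS FAT-20 library, and the interaction was -1.20 ± 0.22 (adjusted p = 0.0023; -1.09 and 0.032 without the 3 libraries). E2f1 (chromosome 2, 154559407 to 154569892), a transcription factor of S-phase genes chosen here after its values were seen, went from 2.75 CPM (2.25 to 4.67) to 6.29 CPM (3.71 to 7.14) on CAS and from 3.25 CPM (2.03 to 3.77) to 3.04 CPM (2.18 to 5.96) on WPI. In 11 of 12 CAS FAT-40 libraries it lay above every CAS FAT-20 library, and its interaction was -0.85 ± 0.18 (adjusted p = 0.0083; -0.73 and 0.10 without the 3 libraries).

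In the interaction 3 of the 24 cell cycle genes were called more negative on WPI (Mcm5, Mcm6 and Mcm3), 1 more positive (E2f8), and 20 were not called. Their median log2 interaction was -0.49 (-0.38 without the 3 libraries), against 0.00 over all genes. The MCM proteins form the helicase that unwinds replication origins. Mcm5 (chromosome 8, 75109569 to 75128439) went from a median of 1.39 CPM (0.869 to 2.93) to 3.92 CPM (2.03 to 7.55) on CAS and from 1.26 CPM (0.970 to 2.74) to 1.60 CPM (1.23 to 3.29) on WPI. Its interaction of -1.18 ± 0.30 (adjusted p = 0.028) had an adjusted p of 0.16 without the 3 libraries, and it lost its call without any 1 of 3 single libraries (highest adjusted p = 0.054, without WPI FAT-20 replicate 11). Mcm6, at -0.85 ± 0.24 (adjusted p = 0.044), and Mcm3, named after its values were seen, at -0.66 ± 0.19 (adjusted p = 0.047), lie closer to the threshold: leaving out CAS FAT-40 replicate 6 gave adjusted p of 0.084 and 0.082, and 22 and 30 single libraries ended their calls. Without the 3 set-apart libraries Mcm6 was at -0.75 (adjusted p = 0.20) and Mcm3 at -0.57 (adjusted p = 0.21). Mcm2 (-0.83 ± 0.24, adjusted p = 0.0545) did not pass. Chaf1a, which places histones behind the fork, had a median of 0.766 CPM at FAT-20 and 2.41 CPM at FAT-40 on CAS, and 0.984 and 1.23 CPM on WPI (interaction -1.15 ± 0.28, adjusted p = 0.020; -0.92 and 0.13 without the 3 libraries). Unlike them, E2f8, a repressor of E2F targets, fell on CAS from 15.4 CPM (6.72 to 58.7) to 4.91 CPM (3.84 to 10.5), with medians of 6.99 and 7.15 CPM on WPI (interaction 1.70 ± 0.40, adjusted p = 0.017; 1.4 and 0.15 without the 3 libraries).

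Mcm3, Mcm5 and Mcm6 were picked because they were called more negative on WPI in these data. Their promoter windows (RefSeq, GRCm38.p6, from 250 bases before to 50 after the start) are shown where they hold an E2F-type motif. The motifs searched were TTTCCCGC, TTTGGCGC, TTTCGCGC and TTTGCCGC on both strands, overlaps allowed, and capitals mark the matches, adjoining ones as 1 run. Of all 32851 windows of that length 2.26% held a match. Of the 24 cell cycle genes 18 had a window, and 4 held a match (Mcm3, Mcm5, Mcm6 and Cdk1, whose interaction was -0.69 ± 0.30, adjusted p = 0.215). The first share counts windows and the second counts genes, where any window of a gene sufficed, so they are not like measures. Genes outside the list, such as Pole, E2f1 and Chaf1a, were not looked up by name. Mcm2, which moved the same way without passing, is not among the 4 genes with a match. Whether Mcm2 had a window is not given here. For Mcm5 and Mcm6 the bases before the start are printed, and for Mcm3 the 30 bases around its matches, which lie 20 to 46 bases after the start.
Mcm3, chr1:20820265-20820294, minus strand: gGCGGGAAAacttgggaagtTTTGGCGCca
Mcm5, chr8:75109259-75109508, plus strand: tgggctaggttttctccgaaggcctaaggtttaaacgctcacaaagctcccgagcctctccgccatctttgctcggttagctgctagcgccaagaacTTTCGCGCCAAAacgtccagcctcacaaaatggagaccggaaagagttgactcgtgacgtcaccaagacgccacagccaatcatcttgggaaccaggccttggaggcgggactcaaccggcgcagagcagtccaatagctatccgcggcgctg
Mcm6, chr1:128359706-128359955, minus strand: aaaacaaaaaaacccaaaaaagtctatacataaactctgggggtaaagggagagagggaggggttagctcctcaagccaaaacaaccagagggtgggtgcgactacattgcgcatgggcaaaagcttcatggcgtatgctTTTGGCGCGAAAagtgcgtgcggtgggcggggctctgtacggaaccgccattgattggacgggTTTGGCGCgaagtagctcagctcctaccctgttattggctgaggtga
The Mcm5 matches lie 153 to 142 bases before the start, and those of Mcm6 110 to 99 and 47 to 40 bases before it. A match describes these letters alone; whether E2F proteins bound there was not measured.

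**Figure D3:**
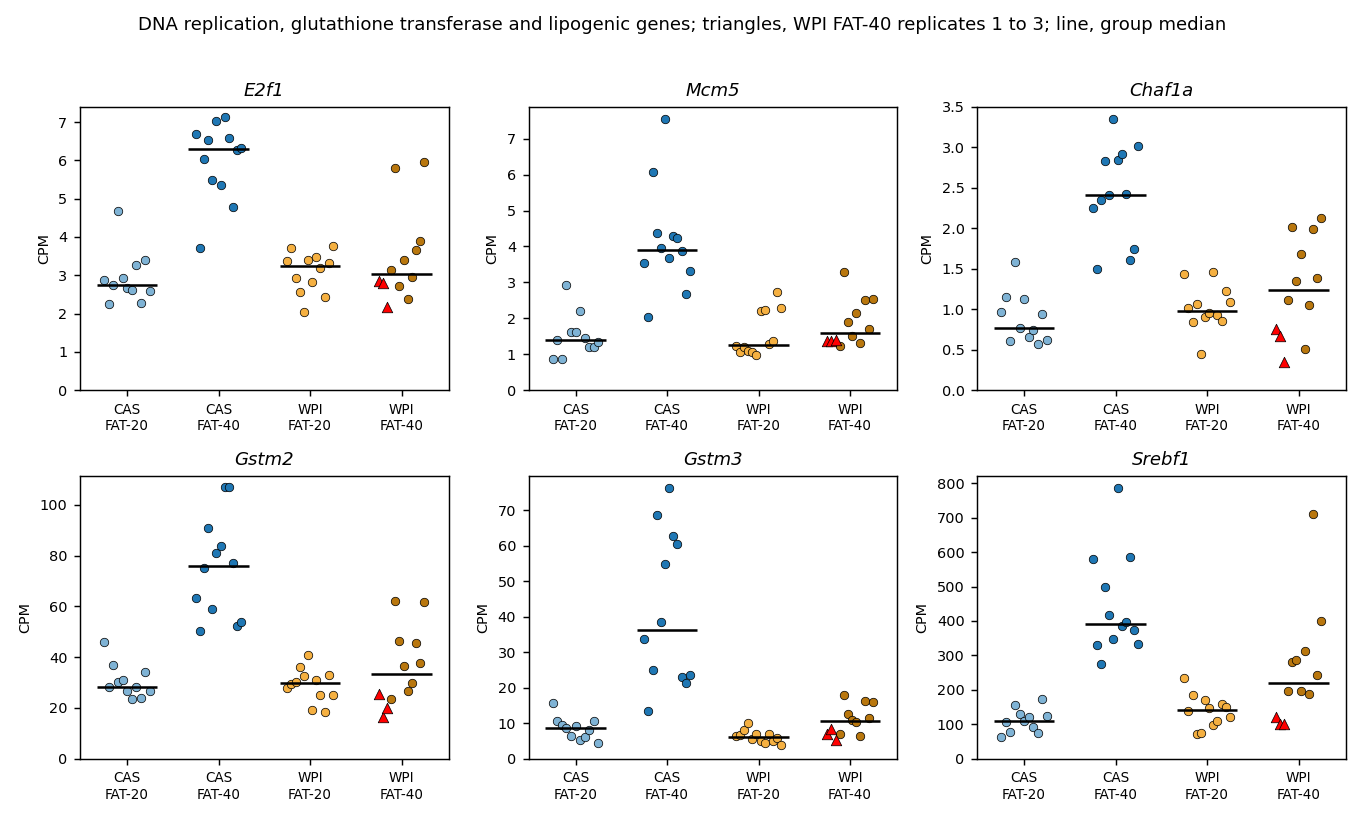
CPM of 6 genes in each library by group (linear axes); points are libraries, red triangles are WPI FAT-40 replicates 1 to 3 and lines are group medians. In every panel the CAS FAT-40 median is the highest of the 4, and the WPI FAT-40 triangles lie at or below the median of their group.

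Among detoxification genes of the glutathione group, more rose than fell on CAS. Of 24 measured glutathione transferases and NRF2 targets, 3 were called more negative on WPI (Gstm3, Gstm2 and Nqo1), 0 more positive and 21 not called, with a median log2 interaction of -0.23 (-0.16 without the 3 libraries). On CAS 13 rose and 3 fell, and on WPI 2 rose and 2 fell. Over all genes 15.8% rose and 14.4% fell on CAS, so the 3 that fell were near that share. Gstm3 went from a median of 8.64 CPM (4.46 to 15.8) to 36.2 CPM (13.5 to 76.2) on CAS and from 6.18 CPM (3.81 to 10.2) to 10.7 CPM (5.29 to 18.0) on WPI. It rose on both proteins, by 2.28 ± 0.24 (adjusted p = 2.6e-11) on CAS and 0.78 (adjusted p = 0.028) on WPI, and the difference was -1.50 ± 0.33 (adjusted p = 0.0099; -1.34 and 0.10 without the 3 libraries). Gstm2 went from 28.3 CPM (23.4 to 46.0) to 76.1 CPM (50.4 to 107) on CAS, without overlap, and from 29.8 CPM (18.5 to 40.7) to 33.2 CPM (16.4 to 62.0) on WPI (interaction -0.99 ± 0.24, adjusted p = 0.022; -0.80 and 0.15). Nqo1, a quinone reductase, was at -1.04 ± 0.28 (adjusted p = 0.034; -0.80 and 0.19 without the 3 libraries; 0.064 without WPI FAT-20 replicate 7, and 14 single libraries ended its call). Among the 24 measured CAR and PXR cytochromes, 11 rose and 4 fell on CAS; Cyp3a59 was called more negative on WPI (-1.01 ± 0.27, adjusted p = 0.033; -0.91 and 0.15 without the 3 libraries; 0.062 without WPI FAT-40 replicate 1, 1 of 7 libraries that ended the call) and Cyp2c67 more positive (0.65 ± 0.16, adjusted p = 0.025; 0.65 and 0.12 without the 3 libraries). The Gstm, Cyp3a and Cyp2c genes have near-identical copies, so reads may have been split between them.

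Many fatty acid oxidation genes fell on both proteins, and 2 fell less, or not past the test, on WPI. Of 35 measured oxidation genes and PPARα targets, 20 fell on CAS and 13 on WPI, and 0 rose on either. In the interaction 2 were called more positive on WPI (Eci2 and Hadhb), 0 more negative and 33 not called, with a median of 0.09 (0.14 without the 3 libraries). Hadhb, the beta subunit of the mitochondrial trifunctional protein, went from a median of 345 CPM (315 to 443) to 221 CPM (171 to 257) on CAS and from 352 CPM (321 to 403) to 279 CPM (226 to 339) on WPI. No CAS FAT-40 library reached the CAS FAT-20 range, and 11 of 12 WPI FAT-40 libraries lay below the WPI FAT-20 range. The log2 changes were -0.72 ± 0.06 on CAS (adjusted p = 4.5e-14) and -0.37 on WPI (adjusted p = 5.7e-05), and their difference was 0.35 ± 0.09 (adjusted p = 0.024; 0.35 and 0.11 without the 3 libraries). Its partner subunit Hadha gave 0.30 ± 0.09 (adjusted p = 0.052) and did not pass. Eci2, which shifts double bonds in unsaturated chains during oxidation, fell from 266 CPM (226 to 280) to 186 CPM (108 to 218) on CAS, without overlap, and had medians of 234 and 213 CPM on WPI (interaction 0.50 ± 0.12, adjusted p = 0.017; 0.52 and 0.071).

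The Cyp4a genes, which hydroxylate the omega end of fatty acids and are classical PPARα targets, had the lowest median log2 change on CAS of the 61 lists, -0.90, with a median of -0.65 on WPI. Of 9 measured, 7 fell and 1 rose on CAS, 3 fell on WPI, and 2 were called more positive on WPI in the interaction (median 0.61; 0.58 without the 3 libraries). Cyp4a31 (chromosome 4, 115563649 to 115579015) went from a median of 110 CPM (57.5 to 168) to 8.66 CPM (4.10 to 16.5) on CAS and from 130 CPM (84.5 to 254) to 31.5 CPM (11.3 to 109) on WPI. The CAS groups were far apart, 11 of 12 WPI FAT-40 libraries lay below every WPI FAT-20 library, and 11 of 12 lay above every CAS FAT-40 library. Its log2 changes were -3.43 ± 0.27 (adjusted p = 8.6e-16) and -1.88 (adjusted p = 2.1e-07), with a difference of 1.56 ± 0.34 (adjusted p = 0.011; 1.11 and 0.15 without the 3 libraries). On the linear scale the sign turned: the difference of differences in mean CPM was -13.4. Cyp4a32 fell on CAS from 83.7 CPM (65.1 to 99.6) to 44.9 CPM (29.9 to 57.1) and had medians of 72.8 and 67.9 CPM on WPI (interaction 0.79 ± 0.18, adjusted p = 0.012; 0.58 and 0.15). Reads of these near-identical copies may have been split as well. Ppara itself was at medians of 249 and 243 CPM on CAS and 243 and 231 CPM on WPI (interaction -0.02 ± 0.15, adjusted p = 0.96).

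Among 18 measured fatty acid uptake and binding genes, Fabp5 and Slc27a2 were called, both more positive on WPI, and 16 were not called. Slc27a2, a very long-chain acyl-CoA synthetase and transporter, fell from 2090 CPM (1880 to 2490) to 1550 CPM (1020 to 1770) on CAS without overlap, with medians of 2020 and 1980 CPM on WPI (interaction 0.43 ± 0.11, adjusted p = 0.022; 0.38 and 0.15 without the 3 libraries). Fabp5, a fatty acid binding protein, had medians of 11.7 and 3.51 CPM on CAS and 6.06 and 5.39 CPM on WPI; at WPI FAT-40 its 3 set-apart libraries were at 20 to 61.4 CPM and the other 9 at 2.40 to 36.6 CPM (interaction 2.60 ± 0.56, adjusted p = 0.0099; 1.59 and 0.19 without the 3). Of 19 lipoprotein genes Apom and Mttp were called more positive on WPI and 17 were not called. Apom, which carries sphingosine 1-phosphate on HDL, fell from 173 CPM (124 to 209) to 86.2 CPM (67.7 to 108) on CAS without overlap and went from 174 CPM (145 to 207) to 142 CPM (78.6 to 218) on WPI. Without the 3 libraries, which held its highest values (183 to 218 CPM), Apom also fell on WPI (-0.46, adjusted p = 0.0053), and the interaction moved from 0.74 ± 0.16 (adjusted p = 0.011) to 0.53 (adjusted p = 0.15). Mttp, which loads lipid onto apolipoprotein B, was at 0.32 ± 0.08 (adjusted p = 0.027; 0.26 and 0.19 without the 3 libraries; 0.055 without WPI FAT-40 replicate 1, 1 of 3 libraries that ended the call).

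**Figure D4:**
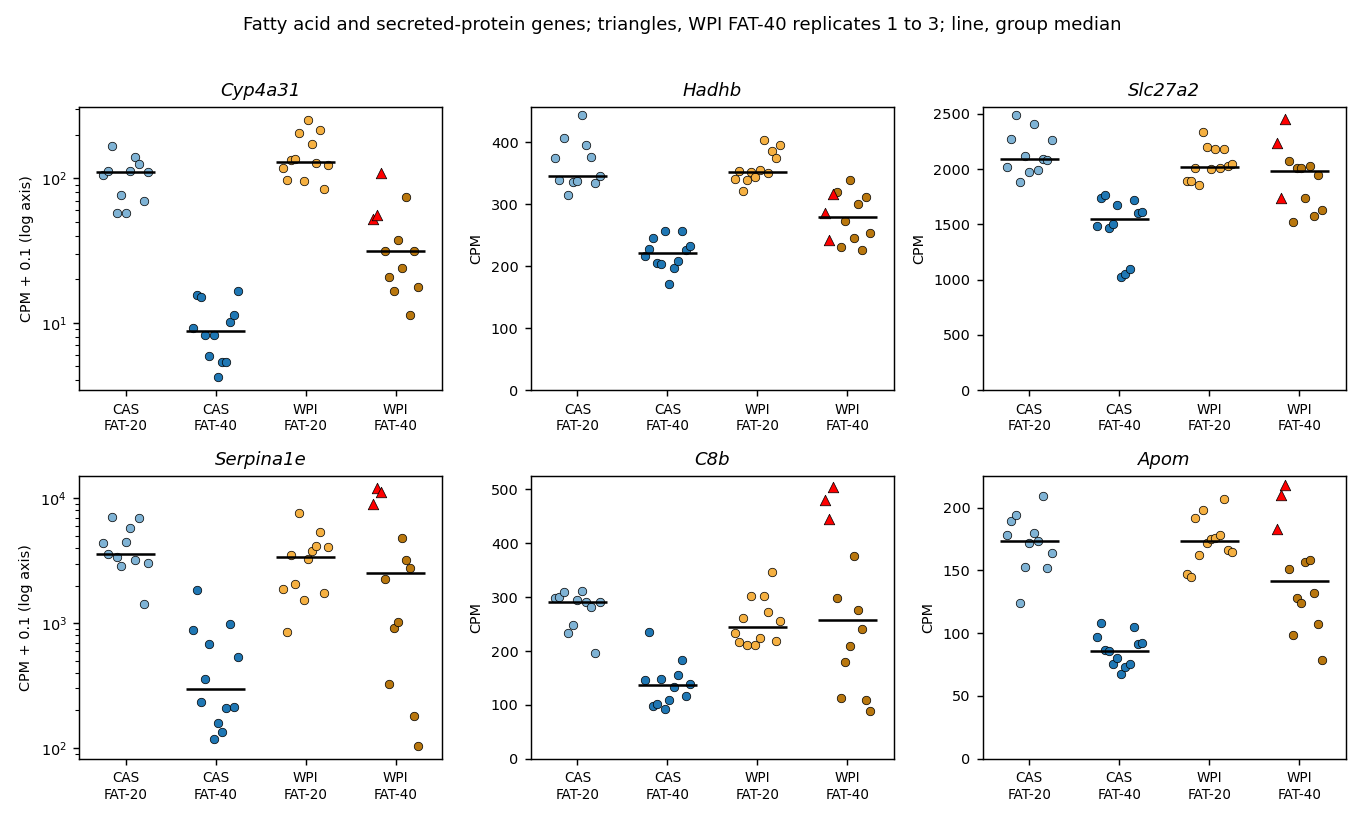
CPM of 6 genes in each library by group (linear axes; log axes of CPM + 0.1 for Cyp4a31 and Serpina1e); points are libraries, red triangles are WPI FAT-40 replicates 1 to 3 and lines are group medians. The triangles are the highest WPI FAT-40 values for Serpina1e, C8b and Apom, and lie within the range of the other 9 libraries for Hadhb.

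Most lipogenic genes rose on CAS, and 1 differed between the proteins by the test of the interaction. Of 19 measured fatty acid synthesis genes 14 rose and 1 fell on CAS, 5 rose and 1 fell on WPI, and 1 was called in the interaction, more negative on WPI (median -0.33 with and without the 3 libraries). That gene, Acss2, makes acetyl-CoA from acetate; it went from 65.4 CPM (55.2 to 73.7) to 91.9 CPM (69.3 to 168) on CAS and from 72.2 to 69.9 CPM on WPI (-0.54 ± 0.15, adjusted p = 0.041; -0.46 and 0.21 without the 3 libraries; 0.088 without CAS FAT-40 replicate 7, 1 of 22 libraries that ended the call). Srebf1, which encodes SREBP1c, rose on both proteins, from a median of 109 CPM (62.1 to 174) to 391 CPM (274 to 786) on CAS and from 143 CPM (71.8 to 234) to 220 CPM (101 to 710) on WPI. Every CAS FAT-40 library lay above the CAS FAT-20 range and 6 of 12 WPI FAT-40 libraries above the WPI FAT-20 range; the interaction was -1.07 ± 0.31 (adjusted p = 0.052) and -0.82 without the 3 libraries, which were at 101 to 122 CPM (adjusted p = 0.23). Fasn, fatty acid synthase, rose on both (1.80 and 1.04; interaction -0.76 ± 0.34, adjusted p = 0.24). The fatty acid translocase Cd36 (-1.01 ± 0.36, adjusted p = 0.13) and the lipogenic nuclear receptor Pparg (-0.74 ± 0.32, adjusted p = 0.22) rose on CAS and were not called in the interaction. Without the 3 libraries, Cd36 (0.86, adjusted p = 0.017) and Pparg (0.75, adjusted p = 0.017) passed the test for a rise on WPI too.

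In cholesterol synthesis 0 of 25 genes were called in the interaction (median -0.16) and 11 rose on CAS. In bile acid synthesis 1 of 21 measured genes was called, Cyp7b1, the oxysterol hydroxylase of the alternative pathway; Cyp7a1, which starts the classical pathway, was at 0.25 ± 0.43 (adjusted p = 0.84). Of 17 sphingolipid and phospholipid genes 1 was called: Smpd3, a neutral sphingomyelinase, at 1.13 CPM (0.0872 to 1.98) and 4.78 CPM (1.78 to 10.3) on CAS and 2.03 CPM (0.460 to 8.35) and 2.13 CPM (0.788 to 5.53) on WPI. Its interaction hardly moved without the 3 libraries (-2.42 ± 0.50, adjusted p = 0.0076; -2.32 and 0.067).

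Many secreted and male-biased liver genes fell on CAS, and they varied widely on WPI FAT-40. Of 26 measured growth hormone axis and sex-biased genes, 13 fell and 3 rose on CAS, 4 rose and 1 fell on WPI, and 2 were called more positive on WPI (median 0.46; 0.29 without the 3 libraries). Serpina1e (chromosome 12, 103946931 to 103958975), an alpha-1-antitrypsin isoform, went from a median of 3610 CPM (1430 to 7050) to 295 CPM (119 to 1830) on CAS. On WPI its medians were 3410 CPM (844 to 7580) and 2510 CPM (104 to 12000), with the 3 set-apart libraries at 9030 to 12000 CPM and the other 9 at 104 to 4770 CPM (median 1020). The 4 WPI FAT-40 stem means were 10800, 1170, 3000 and 1010 CPM, so the spread between stems exceeded the difference between the WPI medians. The interaction was 3.26 ± 0.74 (adjusted p = 0.014), and 2.05 without the 3 libraries (adjusted p = 0.22).

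The major urinary protein genes Mup16, Mup17, Mup11 and Mup19 followed the same libraries. Mup11 ran from 697 to 772 CPM in WPI FAT-40 replicates 1 to 3 and from 11.6 to 180 CPM in the other 9, against medians of 134 and 27.7 CPM on CAS. Their log2 interactions of 2.92 to 3.61 came to 1.23 to 1.86 without the 3 libraries, with adjusted p of 0.31 to 0.62. Mup8, chosen after its values were seen, was called too (2.43, adjusted p = 0.027) and came to 0.91 (adjusted p = 0.55) without them. These genes are near-identical copies, so their separate values are uncertain, and single libraries ended the calls of Mup17 (20 libraries; highest adjusted p = 0.10, without WPI FAT-40 replicate 3), Mup11 (3; 0.060, replicate 2) and Mup19 (4; 0.083, replicate 1). Mup16 stayed called whichever single library was left out. Selenbp2, a selenium-binding protein, gave 2.98 ± 0.77 (adjusted p = 0.029) with and 1.33 (0.50) without the 3 libraries, and 0.075 without replicate 1 alone, 1 of 4 that ended its call. Ugt2b38, a glucuronosyltransferase, gave 3.19 ± 0.79 (adjusted p = 0.023) with and 1.59 (0.40) without them, and 0.064 without replicate 1, 1 of 2. Cyp7b1 was at 537 to 629 CPM in the 3 libraries and 87.0 to 282 CPM in the other 9; its interaction of 1.23 ± 0.32 (adjusted p = 0.030) came to 0.49 (adjusted p = 0.48) without the 3, and replicate 1 alone, 1 of 3 libraries that ended the call, gave 0.076. Socs2, a growth hormone signalling target, fell on CAS (-2.31 ± 0.38) and was not called in the interaction (1.75 ± 0.51, adjusted p = 0.058). Whether the unmapped share of these libraries or the state of their mice bears on these values was not tested.

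Among complement and coagulation genes, more fell than rose on CAS. Of 27 measured 11 fell and 1 rose on CAS, 4 rose and 0 fell on WPI, and 3 were called more positive on WPI (C8b, C1ra and Plg; median 0.17, 0.15 without the 3 libraries). C8b, part of the membrane attack complex, went from 291 CPM (197 to 312) to 136 CPM (91.6 to 235) on CAS, and its WPI medians were 244 CPM (211 to 346) and 258 CPM (88.2 to 505). The 3 libraries were its highest at 445 to 505 CPM (interaction 1.12 ± 0.27, adjusted p = 0.021; 0.73 and 0.23 without them). C1ra, a protease of the C1 complex, was at 307 to 332 CPM in the 3 libraries, within the 228 to 338 CPM of the other 9. Its difference went from 0.34 ± 0.09 (adjusted p = 0.026) to 0.31 (adjusted p = 0.16) without them, with 9 of 12 WPI FAT-40 libraries above every CAS FAT-40 library. Plasminogen (Plg, 0.31 ± 0.09, adjusted p = 0.044; 0.22 and 0.27 without the 3) lost its call without any 1 of 19 single libraries (highest adjusted p = 0.076, without WPI FAT-40 replicate 1). Of 24 acute phase genes 1 was called, fibrinogen beta (Fgb, 0.69 ± 0.18, adjusted p = 0.036; 0.44 and 0.29 without the 3), at 6140 to 6940 CPM in the 3 libraries and 2430 to 8510 CPM in the other 9; the same replicate 1 left out gave 0.075, 1 of 10 that ended the call. Of 48 interferon response genes 2 were called more positive on WPI: Iigp1 (0.59 ± 0.15, adjusted p = 0.026; 0.52 and 0.16 without the 3) and Irf9 (0.38 ± 0.10, adjusted p = 0.035; 0.31 and 0.20 without the 3; 0.071 without replicate 1, 1 of 10). Iigp1, an interferon-induced GTPase, had medians of 403 and 308 CPM on CAS and 334 and 378 CPM on WPI.

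Among hormones and receptors made by liver, 3 of 18 were called more positive on WPI and 15 were not called (median 0.31; 0.20 without the 3 libraries). Inhba, the activin A subunit, fell from 8.72 CPM (6.04 to 20.5) to 5.32 CPM (3.57 to 7.56) on CAS and had medians of 7.46 and 9.56 CPM on WPI, with 9 of 12 WPI FAT-40 libraries above every CAS FAT-40 library (1.23 ± 0.27, adjusted p = 0.0099; 1.12 and 0.10 without the 3). The leptin receptor Lepr fell on both, from 9.13 CPM (4.60 to 24.1) to 3.34 CPM (2.52 to 5.02) on CAS and from 5.49 CPM (3.47 to 10.2) to 3.85 CPM (2.06 to 5.21) on WPI. Its interaction of 1.08 ± 0.28 (adjusted p = 0.029; 1.03 and 0.15 without the 3; 0.063 without CAS FAT-20 replicate 7, 1 of 3 that ended the call) goes with a lower level on WPI at FAT-20 (-0.91, adjusted p = 0.015) and a log2 difference of 0.16 at FAT-40 (adjusted p = 0.69). Fetub, a secreted protease inhibitor, was at 0.53 ± 0.14 (adjusted p = 0.030; 0.45 and 0.18 without the 3; 0.054 without WPI FAT-40 replicate 1, 1 of 3), and the fasting hormone Fgf21 at 0.99 ± 0.54 (adjusted p = 0.35).

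In nitrogen metabolism the lists given here held 0 or 1 called gene each, beside 1.49% called among all genes tested. Ass1, the argininosuccinate synthase of the urea cycle, went from 1990 CPM (1490 to 2660) to 3320 CPM (2240 to 4890) on CAS, and its WPI medians were 2220 and 2110 CPM (-0.73 ± 0.19, adjusted p = 0.034; -0.70 and 0.16 without the 3 libraries; 0.069 without CAS FAT-40 replicate 7, 1 of 10). It was the 1 called gene of 16 in its list, in which 7 rose and 1 fell on CAS and 1 rose on WPI. Of 37 amino acid breakdown genes 20 rose and 4 fell on CAS, 6 rose and 2 fell on WPI, and 0 were called in the interaction (median -0.20). Aldh1l1, a folate-dependent dehydrogenase, was the 1 called gene of 20 in the one-carbon list (-0.66 ± 0.18, adjusted p = 0.041; -0.56 and 0.21 without the 3; 0.075 without CAS FAT-40 replicate 7, 1 of 24). Asparagine synthetase (Asns), the marker target of the amino acid response, had medians of 0.778 and 0.317 CPM on CAS and 1.23 and 0.676 CPM on WPI, while the highest WPI FAT-40 library was at 16.4 CPM. The 4 WPI FAT-40 stem means of Asns were 12.2 CPM (replicates 1 to 3), 0.315, 8.48 (replicates 7 to 9) and 0.379 CPM. Replicates 7 to 9 stay in its value without the 3 libraries. Its interaction of 3.46 ± 0.86 (adjusted p = 0.024; 2.65 and 0.20 without the 3 libraries; 0.059 without CAS FAT-20 replicate 7, 1 of 2) stood alone among 32 measured targets of ATF4, whose median was 0.08. For glucose, Pgam1, a glycolytic mutase, was the 1 called gene of 19 in its list (-0.30 ± 0.08, adjusted p = 0.033; -0.27 and 0.17 without the 3; 0.070 without CAS FAT-20 replicate 3, 1 of 14), and the gluconeogenic Pck1 fell on CAS and had an interaction of 0.06 ± 0.22 (adjusted p = 0.92).

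Several called genes rested on few libraries. Ctrl, chymotrypsin-like protease of the pancreas, was at 71.3 CPM in WPI FAT-40 replicate 2 and at most 0.605 CPM on CAS; its interaction of 4.21 ± 1.13 (adjusted p = 0.037) was -0.07 (adjusted p = 0.96) without that library. Fosb, an immediate early gene, reached 129 CPM in the highest WPI FAT-20 library with group medians of 0.471 to 1.01 CPM (interaction -4.66 ± 1.13, adjusted p = 0.022). Its adjusted p was 0.060 without CAS FAT-40 replicate 10, 1 of 2 libraries that ended the call, and DESeq2 put its interaction at 0.55. Tff3, a mucosal trefoil peptide, was at 16.2 to 40.2 CPM in the 3 set-apart libraries and at most 19.0 CPM elsewhere (4.53 ± 0.91, adjusted p = 0.0060; 2.03 and 0.28 without them). Other genes with large or listed differences kept their call whichever single library was left out: Atp8b5 (-1.31 ± 0.28), a phospholipid flippase, Treh (-1.18 ± 0.29), the trehalase, Rarb (-0.95 ± 0.24), a retinoic acid receptor, and Ces3a (0.59 ± 0.14), a carboxylesterase. Without the 3 set-apart libraries together these 4 lost it: Atp8b5 was at -1.25 (adjusted p = 0.071), Treh at -1.16 (0.12), Rarb at -0.90 (0.13) and Ces3a at 0.47 (0.16). Ccng1, a p53 target, rose on both proteins (0.63 and 0.24 on the log2 scale; interaction -0.39 ± 0.11, adjusted p = 0.045; -0.32 and 0.22 without the 3), and 26 single libraries ended its call (highest adjusted p = 0.080, without WPI FAT-40 replicate 2). The predicted genes Gm15611, Gm1600 and A530020G20Rik were called too.

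Other large gene groups gave no called member, which says little for groups of this size where 1.49% of all genes were called. Of 50 cytosolic ribosomal protein genes 48 fell on CAS and 5 on WPI, with 0 called in the interaction and a median of 0.18 (0.16 without the 3 libraries). For 69 respiratory chain genes the interaction median was -0.08, and for 19 circadian clock genes it was -0.04, with 0 clock genes called on either protein. Of 23 ER chaperone and secretion genes 7 rose on CAS and 12 on WPI, with an interaction median of 0.22 (0.13 without the 3 libraries) and 0 called. The interaction was positive in 50 of the 50 ribosomal genes and 22 of the 23 ER genes. It was negative in 58 of the 69 respiratory chain genes and 11 of the 19 clock genes. These signs were not tested. In all, 26 of 61 gene lists held a called gene and 35 did not, and 40 of 1030 distinct listed genes (3.88%) were called, against 1.49% of all genes. The lists were chosen with earlier results of these data known, so the larger share among listed genes gives no test. Without the 3 set-apart libraries 0 lists held a called gene.

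Among markers of other liver cells, those of stellate and endothelial cells rose most often on CAS, and 0 listed genes of these types were called in the interaction. Of 19 measured stellate cell and fibrosis genes 12 rose on CAS and 0 on WPI (median log2 interaction -0.38; -0.37 without the 3 libraries). Their summed level ran from 337 to 509 CPM on CAS FAT-20, 440 to 623 CPM on CAS FAT-40, 388 to 534 CPM on WPI FAT-20 and 426 to 690 CPM on WPI FAT-40, so the groups overlapped. Of 12 endothelial genes 7 rose on CAS and 0 on WPI (median -0.26), with sums of 348 to 596, 531 to 611, 451 to 614 and 522 to 606 CPM in the same order. Of 21 macrophage genes 2 rose and 2 fell on CAS, of 14 T and NK cell genes 1 rose, of 11 B and plasma cell genes 1 fell, and of 8 cholangiocyte genes 0 changed; these lists gave 0 called genes in the interaction. Over all genes 15.8% rose and 14.4% fell on CAS, so the counts of these lists were not above those shares. A pair of immunoglobulin heavy chain genes outside the lists, chosen after their values were seen, were called more positive on WPI. Ighg1 had group means of 0.208 and 0.0867 CPM on CAS and 0.266 and 1.98 CPM on WPI (4.05, adjusted p = 0.046; 4.40 and 0.10 without the 3 libraries). Ighg2b had means of 1.95 and 0.773 CPM on CAS and 2.05 and 4.09 CPM on WPI (2.33, adjusted p = 0.038; 2.20 and 0.15). Both genes are at low levels, and values of single libraries are not given here, so a few libraries may carry these means. Of the 11 measured B and plasma cell genes, 7 had a positive and 4 a negative interaction. In whole liver a smaller share of a cell type and less RNA per cell cannot be told apart. Of 4 measured genes of the adipose list 3 rose on CAS and 1 on WPI, and its summed level ran from 337 to 2420 CPM on CAS FAT-20, 2120 to 3580 CPM on CAS FAT-40, 721 to 2480 CPM on WPI FAT-20 and 851 to 4100 CPM on WPI FAT-40. Its defining markers Adipoq, Lep, Plin1 and Retn reached at most 0.400, 0.0424, 0.356 and 0.178 CPM. With the scores of the pancreatic, adipose and erythroid marker lists as covariates, edgeR called 0 genes in the interaction (1393 at an unadjusted p under 0.05), with 223 of the 224 in the same direction. Albumin (0.03 ± 0.12, adjusted p = 0.94), Ttr (-0.17 ± 0.11, adjusted p = 0.43), Apoa1 (0.46 ± 0.20, adjusted p = 0.22) and Hnf4a (0.36 ± 0.16, adjusted p = 0.23) were not called.

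More genes differed between the proteins at FAT-40 than at FAT-20, except with marker covariates. WPI and CAS differed in 77 genes at FAT-20 (0.512%), 0.219% higher and 0.292% lower on WPI, and in 1236 at FAT-40 (8.21%), 3.85% higher and 4.37% lower. Without WPI FAT-40 replicates 1 to 3 the count at FAT-40 was 449. With the marker scores as covariates the counts were 60 at FAT-20 and 27 at FAT-40, though the adipose score itself differed between the diets. These 2 comparisons make up the interaction, so the following counts only describe the 224 genes. Of the 132 genes more positive on WPI, 89 were higher and 0 lower on WPI at FAT-40, and 0 were higher and 5 lower at FAT-20. Of the 92 more negative, 71 were lower at FAT-40 and 5 higher at FAT-20.

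The FAT-55 libraries do not enter the interaction's group differences, though they share its filter, scaling and dispersion estimates. There WPI and CAS differed in 2183 genes (14.5%; 7.07% higher and 7.43% lower on WPI), and in 72 of the 224 (32.1%), with 41 of the 132 higher on WPI, 31 of the 92 lower, and 0 in the opposite direction. For Sulf2 the log2 difference at FAT-55 was -0.53 (adjusted p = 0.0061), for Pole -0.43 (adjusted p = 0.047), for Gstm3 -2.37 (adjusted p = 3.1e-11), for Serpina1e 2.25 (adjusted p = 0.0036), for C8b 1.13 (adjusted p = 7.7e-05) and for Apom 0.64 (adjusted p = 0.00014). Aldh1b1 (-0.10, adjusted p = 0.67), Exoc4 (-0.24, adjusted p = 0.096), Pigu (0.06, adjusted p = 0.42) and Moxd1 (6.16, adjusted p = 0.17) did not pass there, which does not show that they were equal. The contrast with FAT-55 in place of FAT-40 called 1027 genes (6.82%; 3% more positive and 3.82% more negative on WPI), and a direct test between the 2 contrasts called 49 (0.326%; 0.239% positive and 0.0864% negative); these share the FAT-20 or the FAT-40 libraries with the interaction.

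In jejunum the same contrast called 2 of 16992 genes (0.0118%; 1309 at an unadjusted p under 0.05), Iigp1 (1.49 ± 0.30, adjusted p = 0.032) and Serpina3f (2.33 ± 0.38, adjusted p = 0.0011), both more positive on WPI. Of the 224 liver genes 190 were tested in jejunum, 1 was called there (Iigp1), and 26 (13.7%) had an unadjusted p under 0.05, against 7.70% of all jejunum genes. By their labelled animal identifiers the same 70 mice gave both tissues, so jejunum is not an independent sample of animals.

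The number of calls depended on how stems were treated. Libraries of 1 stem resembled each other, with a consensus correlation of 0.16 in liver. When counts were summed by stem, which leaves 4 values a group, edgeR called 0 of 17545 genes in the interaction (its low-count filter kept more genes; 1560 at an unadjusted p under 0.05; lowest adjusted p = 0.468), with all 224 genes in the same direction and at an unadjusted p under 0.05. The 224 were picked from these same counts, so their direction and unadjusted p there give no test. A random effect for stem, fitted with limma in place of edgeR, called 2, Aldh1b1 and Sulf2, with 1590 at an unadjusted p under 0.05, and DESeq2 on the single libraries called 378. Leaving out 1 stem at a time gave 7 to 939 calls. The fewest came without WPI FAT-40 replicates 1 to 3, then without CAS FAT-20 replicates 1 to 3 (29 genes) and CAS FAT-40 replicates 7 to 9 (69 genes); the most came without WPI FAT-40 replicates 10 to 12.

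**Figure D5:**
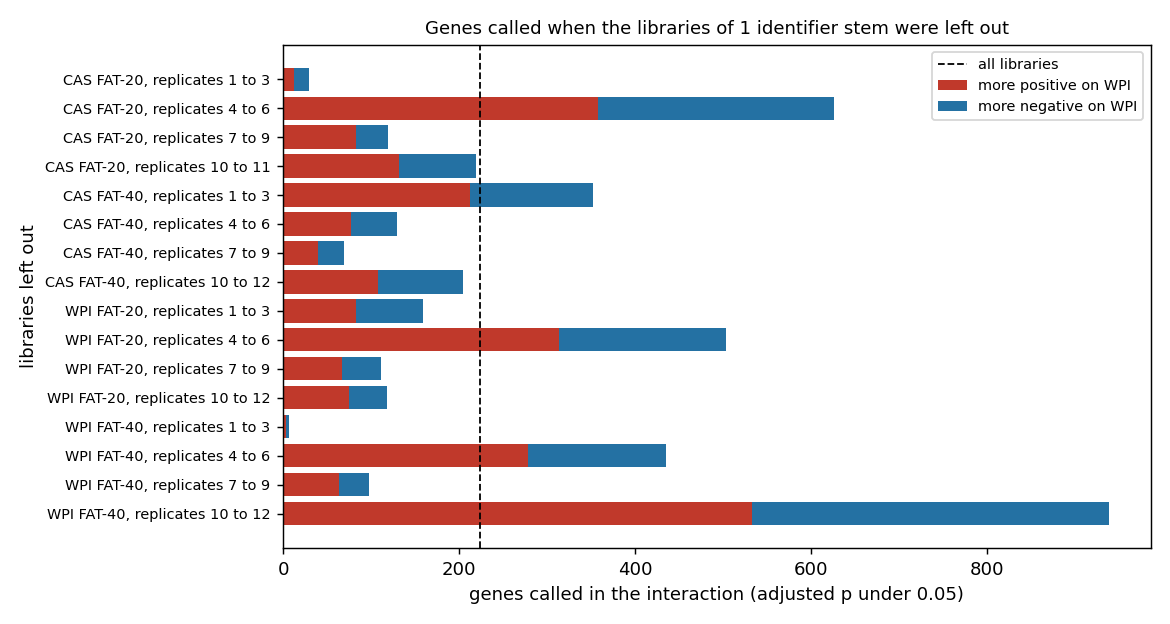
Number of genes called in the interaction (x axis, edgeR adjusted p under 0.05) when all libraries of 1 identifier stem were left out (rows); bars are split by direction and the dashed line marks the 224 genes of all libraries. The bar without WPI FAT-40 replicates 1 to 3 is the shortest (7 genes) and that without WPI FAT-40 replicates 10 to 12 the longest (939 genes).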

How the data were processed

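The deposited liver and jejunum files hold raw read counts per Ensembl gene, made by the authors; per the submitters' processing notes the build was GRCm38 and the tools include STAR, Trim Galore 0.61 with cutadapt, DESeq2 1.24.0 and FastQC. The STAR version, annotation release and strand setting are not given in the sources used here, so overlapping and antisense genes cannot be told apart. Non-gene entries (23.8% of liver entries, 7.71% multimapping) were dropped; multimapping reads lower genes with near-identical copies. Gene names matched 55450 of 55536 identifiers, and coordinates are those of GENCODE M21 on GRCm38. With edgeR 4.0.16 (R 4.3.3), genes passing filterByExpr (minimum count 10, total 15) entered a quasi-likelihood fit with TMM factors over all 70 liver libraries with 1 coefficient per diet; calls are at a Benjamini-Hochberg adjusted p under 0.05. Libraries held 21 to 41 M reads on genes, and values per gene are CPM with TMM scaling. Errors are standard errors of log2 differences.

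Named genes are up to 12 called genes per direction with the largest interaction at a mean of at least 1 CPM. Up to 3 members per list with the smallest adjusted p, and a set of reference genes, are named too. Most others are marked as chosen after their values were seen. Mcm2, Cdk1, Serpina3f and the genes named for the difference between FAT-40 and FAT-55 lie outside this rule and carry no such mark. The members, lists and tests were chosen with earlier results of these data known. Alternatives were median-of-ratios scaling, DESeq2 1.42.0, testing without a low-count filter, sums by identifier stem, a random stem effect and sample quality weights (limma 3.58.1), marker and clock scores as covariates, the 4 groups alone and each library left out. Leaving out each stem and the protein difference at FAT-55 were added after seeing the data. The code was tested on simulated data.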

Additional observations from a re-analysis of the deposited data

Results flagged for a closer look

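The response to FAT-40 differed between WPI and CAS in 224 liver genes by the test of the difference itself, as described above, and in 2 jejunum genes: Iigp1, an interferon-induced GTPase (log2 interaction 1.49 ± 0.30, adjusted p = 0.032), and Serpina3f, a serine protease inhibitor (2.33 ± 0.38, adjusted p = 0.0011; edgeR in both tissues). Iigp1 was more positive on WPI in liver as well (0.59 ± 0.15, adjusted p = 0.026). By their labelled animal identifiers the same mice gave both tissues.

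In 49 liver genes the protein difference at FAT-40 differed from that at FAT-55 (edgeR, adjusted p under 0.05), 36 in the positive direction and 13 in the negative. Icam1, an adhesion molecule for leukocytes, had the smallest adjusted p (1.18 ± 0.20, adjusted p = 0.0015), with log2 protein differences of 0.53 at FAT-40 and -0.65 at FAT-55. Cdkn2c, a cyclin-dependent kinase inhibitor, differed by 0.82 ± 0.17 (adjusted p = 0.024; 0.47 at FAT-40 and -0.35 at FAT-55), and Kbtbd11 by 1.71 ± 0.37 (adjusted p = 0.024; -0.18 and -1.89). Hagh, a glyoxalase, differed by -0.35 ± 0.08 (adjusted p = 0.024), at -0.02 and 0.33. These 4 genes were not called in the interaction at FAT-40.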

How the results depend on the processing

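The number of genes called in the interaction, 224, depended on the setting. It was 231 with median-of-ratios scaling, 222 with a clock score and 161 with the 4 groups alone, but 378 with DESeq2, 107 with no low-count filter, 538 with sample quality weights, 2 with a random stem effect, 0 with sums by stem and 0 with the marker scores. Leaving out 1 library gave 112 to 496 calls and leaving out 1 stem 7 to 939. WPI FAT-40 replicates 1 and 2 (115 and 112 calls without each), CAS FAT-40 replicate 2 (357), CAS FAT-20 replicate 4 (364) and WPI FAT-40 replicates 5 (458), 10 (496) and 12 (364) each moved the count by over 1.5 times. The cause of these moves was not tested, except that sums by stem leave fewer samples. The marker scores rest on few tested genes, and the adipose score itself differed between the diets. No paired analysis was possible because the labels carry no replicate numbers shared between groups, and the numbers used here follow accession order.

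The response on CAS gave 2754 calls with sums by stem, 1926 with the marker scores, 4123 to 4891 without 1 library and 3560 to 4912 without 1 stem. That on WPI gave 618 with no filter, 58 with sums by stem, 249 with a random stem effect, 147 with the marker scores, 751 to 1253 without 1 library and 430 to 1173 without 1 stem. The protein difference at FAT-20 gave 158 with DESeq2, 30 with no filter, 0 with sums by stem (1343 at an unadjusted p under 0.05), 7 with a random stem effect, 515 with quality weights, 22 to 253 without 1 library and 10 to 707 without 1 stem. At FAT-40 it gave 64 with sums by stem, 490 with a random stem effect, 27 with the marker scores (60 at FAT-20), 909 to 1556 without 1 library and 449 to 1917 without 1 stem. The contrast at FAT-55 gave 539 with no filter, 2 with sums by stem, 110 with a random stem effect and 38 with the marker scores. The difference between the contrasts at FAT-40 and FAT-55 gave 166 with DESeq2, 3 with no filter, 0 with sums by stem (1383 at an unadjusted p under 0.05), 0 with a random stem effect (1348), 22 with quality weights, 6 with the marker scores and 96 with the clock score. In jejunum the count was 18 with DESeq2, 8 with quality weights, and 0 with sums by stem (881 at an unadjusted p under 0.05) and with a random stem effect (852).

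Of the 59 named and called genes, 34 stayed called whichever single library was left out. The sign turned for Ctrl (-0.11 with marker scores, -0.10 with group medians, -0.07 without WPI FAT-40 replicate 2; -0.29 to 4.61 over the stems left out), Fosb (0.55 with DESeq2) and Cyp4a31 (-13.4 CPM on the linear scale). Genes near 0 that were not called also crossed it: Ppara (0.00 with quality weights, 0.07 with the clock score, up to 0.02 without a library and -0.14 to 0.04 without a stem), Alb (down to -0.03 without a library and -0.05 to 0.14 without a stem), Cyp7a1 (-0.10 to 0.66 without a stem) and Pck1 (-0.03 to 0.17 without a stem).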
